A study of Mus musculus with 5 samples.

Results

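The 85 genes described here were all genes of the deposited matrices, out of 32285, whose symbols begin as those of the cytosolic ribosomal proteins do (Rpl, Rps or Rplp with a number). The 10 Rps6k names of the ribosomal protein kinases and 5 names marked -ps were left out. The 85 comprised 52 genes of the large (60S) subunit, 32 genes of the small (40S) subunit and Rps19bp1, which shares the name pattern but encodes a binding partner of Rps19 and no ribosomal protein. Their unique molecular identifiers (UMIs, each standing for 1 captured RNA molecule) were summed in barcodes with a UMI of a Cd3 gene, the signaling chains of the T cell receptor. Sums were taken in each library, for barcodes with a UMI of Irf4 or Nr4a1 (positive barcodes) and for barcodes without one (negative barcodes). Both are genes switched on by the T cell receptor.

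A ribosome is built from ribosomal RNA and about equal numbers of each of its proteins, which are made in the cytosol, imported into the nucleolus and assembled there with the help of many factors that leave the finished particle. Messages of ribosomal proteins typically start with a tract of C and T bases, the terminal oligopyrimidine (TOP) tract, through which mTOR signaling controls their translation. Resting T cells hold few ribosomes, and a T cell that meets its antigen enlarges, starts Myc and builds new ones before it divides.

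The samples were OT-II CD4 T cells, which carry a transgenic receptor for an ovalbumin peptide, isolated by negative selection from the spleen of a naive mouse. The labels name rKPC cocultures with OVA and with DMSO, sKPC cocultures with OVA and with DMSO, and OT-II cells alone, with 1 sample each. In the cocultures the T cells spent a night with apCAFs, fibroblasts of a pancreatic tumor that present antigen, which had been sorted from tumors of the clone named. RNA was captured at its 5' end in droplets of the 10x Genomics platform. The deposited counts came as a pair of matrices, with the barcode suffixes of 3 libraries in one (Ga, Gb and Gc) and of 2 in the other (Ha and Hb). The labels list 2 samples for the first and 3 for the second, no source used here ties a suffix to a sample, and the libraries were therefore kept as unassigned. Differences between libraries therefore say nothing of fibroblasts, clone or OVA. No test was possible with 1 library a condition, and intervals cover counting error only. Cd3+ barcodes numbered 5236 in Ga, 6419 in Gc, 3081 in Gb, 4200 in Ha and 3938 in Hb, with medians of 7928 to 8768 UMIs, and pairs of libraries shared 2 to 14 barcode sequences. Positive barcodes numbered 1322 in Ga, 1446 in Gc, 68 in Gb, 86 in Ha and 51 in Hb, that is 25.2% in Ga, 22.5% in Gc, 2.21% in Gb, 2.05% in Ha and 1.30% in Hb of the Cd3+ barcodes. In barcodes thinned to 3000 UMIs these shares were 18.6% in Ga, 16.4% in Gc, 0.893% in Gb, 0.738% in Ha and 0.349% in Hb. Other receptor-response genes moved with the classes: on the log2 scale, the ratio of positive over negative barcodes was 6.32 in Ga and 6.52 in Gc for Nr4a3, and 4.13 in Ga and 4.06 in Gc for Myc. Cd4 itself was lower in positive barcodes (-1.03 in Ga and -0.90 in Gc), as was the gamma-delta receptor gene Trdc (-1.29 in Ga and -1.34 in Gc), so Cd3+ barcodes may hold T cells other than CD4 T cells.

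Together the 85 genes held nearly the same share of all UMIs in positive and in negative barcodes of the libraries that had many positive ones. The share was 17.1% in positive and 16.3% in negative barcodes of Ga, and 15.9% in positive and 15.5% in negative barcodes of Gc. The log2 ratio of positive over negative barcodes was 0.064 (95% interval 0.062 to 0.067) in Ga and 0.029 (0.026 to 0.031) in Gc. These differences are small beside the spread between barcodes, since the middle 50% of positive barcodes of Ga ranged from 14.1% to 19.6% and those of negative barcodes from 13.4% to 19.1%. A share does not count molecules per cell, and positive barcodes were deeper. The median positive barcode held 1740 UMIs of the 85 genes in Ga, against 1362 in the median negative barcode, which is 1.28-fold, while for all other genes it was 1.21-fold. In Gc these folds were 1.26 and 1.21. A larger RNA content of the cells and a better capture of their RNA cannot be told apart in such counts.

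In the other libraries, with 51 to 86 positive barcodes each, the share was lower in positive barcodes. It was 12.3% in positive and 16.0% in negative barcodes of Gb, a log2 ratio of -0.38. In Ha it was 14.6% in positive and 16.1% in negative barcodes (log2 ratio -0.14), and in Hb 15.2% in positive and 16.7% in negative barcodes (log2 ratio -0.13). These values rest on few positive barcodes. The share of the median barcode was also lower in positive barcodes, at 14.5% beside 15.9% in negative ones of Gb. It was 14.3% beside 15.9% in Ha and 15.1% beside 16.6% in Hb. In Gb, 2 of the 68 positive barcodes had over 50000 UMIs and held 40.8% of the UMIs of the class. Without barcodes of over 50000 UMIs the log2 ratio in Gb was -0.21. Markers of fibroblasts (Col1a1, Col1a2, Col3a1, Sparc and Dcn together) stood at 295 UMIs per 1000000 (CPM) in positive and 41.4 CPM in negative barcodes of Gb, and were at 1.98 and 2.06 CPM in Ga. In positive barcodes of Ha the markers of erythroid cells (Hba-a1, Hba-a2, Hbb-bs and Alas2) came to 8671 CPM, against 410.1 CPM in negative ones. Markers of myeloid cells (Lyz2, Csf1r, S100a8, S100a9 and Cd68) came to 732 CPM in positive and 33.6 CPM in negative barcodes of Gb. In Ha they came to 193 and 69.6 CPM, and in Hb to 568 and 126 CPM. The part of all these markers in the lower shares was not tested. Irf4 and Nr4a1 together had 152 UMIs in the 68 positive barcodes of Gb, 146 in the 86 of Ha and 72 in the 51 of Hb.

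**Figure D1:**
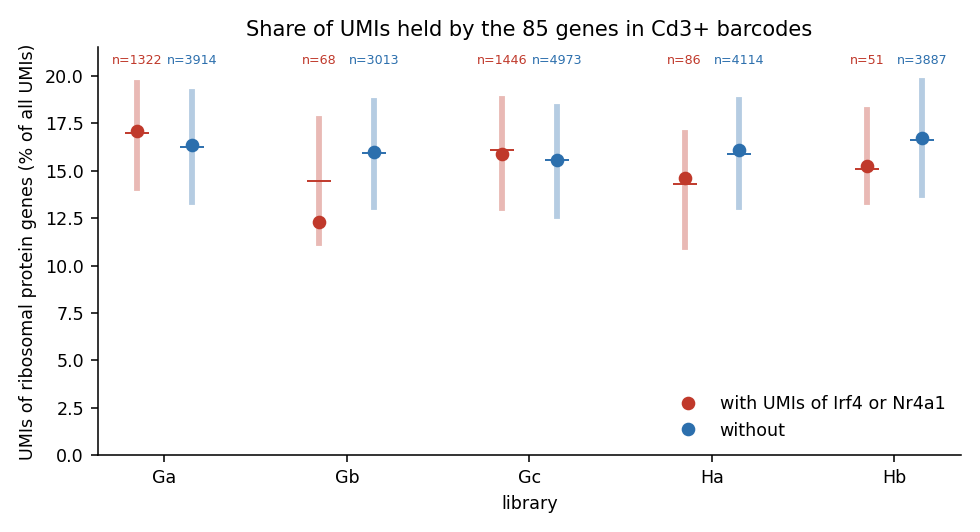
Share of UMIs held by the 85 genes (vertical axis, % of all UMIs) in positive (red) and negative (blue) Cd3+ barcodes of each library. Circles give the share in the summed UMIs, dashes the median barcode, bars the middle 50% of barcodes, and n the number of barcodes; the circles stay between 12.3% and 17.1%, and the bars of the classes overlap in every library.

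Among negative barcodes the libraries were alike as well. The share ran from 15.5% in Gc to 16.7% in Hb, and over all Cd3+ barcodes from 15.6% to 16.7% in the same libraries, a log2 span of 0.094. In barcodes without a Cd3 UMI, most of which were shallow, it lay between 8.99% in Hb and 11.02% in Ga.

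The steady total hid a spread among the members. Of the 85 genes 82 were measured in Ga and Gc, meaning that at least 20 UMIs were expected in positive barcodes. A ratio of at least 5 to 4, or 0.32 on the log2 scale, counted as higher and one of at most 4 to 5 as lower. In Ga, 18 of the members were higher in positive barcodes, 21.95% of those measured, where the background over all genes was 28.3%. Another 3 were lower, against a background of 33.4%. In Gc 13 were higher (background 29.7%) and 3 were lower (background 30%). In neither direction and in neither library did the share of members past this limit exceed that of all genes. Their median log2 ratio was 0.074 in Ga and 0.034 in Gc, beside -0.049 and -0.011 for all genes measured. Subunits did not separate: the median was 0.032 for the 32 genes of the 40S subunit and 0.093 for the 49 measured genes of the 60S subunit in Ga, and -0.027 and 0.067 in Gc. Ga and Gc gave nearly the same value for each member, with a median absolute difference of 0.037 and a largest one of 0.17 on the log2 scale, and 48 members lay above 0 in both, 29 below 0 in both and 5 on opposite sides.

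A member was said to run apart when its log2 ratio lay at least 0.32 from that of the median member, on the same side, in Ga and in Gc. This held for 11 members above the median (background over all genes 22.1%) and 4 below it (background 28.8%). Those above included Rps2, Rps6, Rps12, Rps27a and Rps27l of the 40S subunit, Rpl7a, Rpl7l1, Rpl22l1 and Rpl36al of the 60S subunit, and Rps19bp1. Those below included Rps21 of the 40S and Rpl24 and Rpl37a of the 60S subunit. The threshold fell in a continuous run of values. Just inside stood Rps27a, at distances of 0.39 in Ga and 0.35 in Gc, and just outside stood Rpl31, at 0.320 and 0.314, and Rps27rt, at -0.321 and -0.351. At a distance of 0.58, which is 1.5-fold, 6 members remained above (Rps2, Rps12, Rps27l, Rpl7l1, Rpl22l1 and Rps19bp1) and none below.

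**Figure D2:**
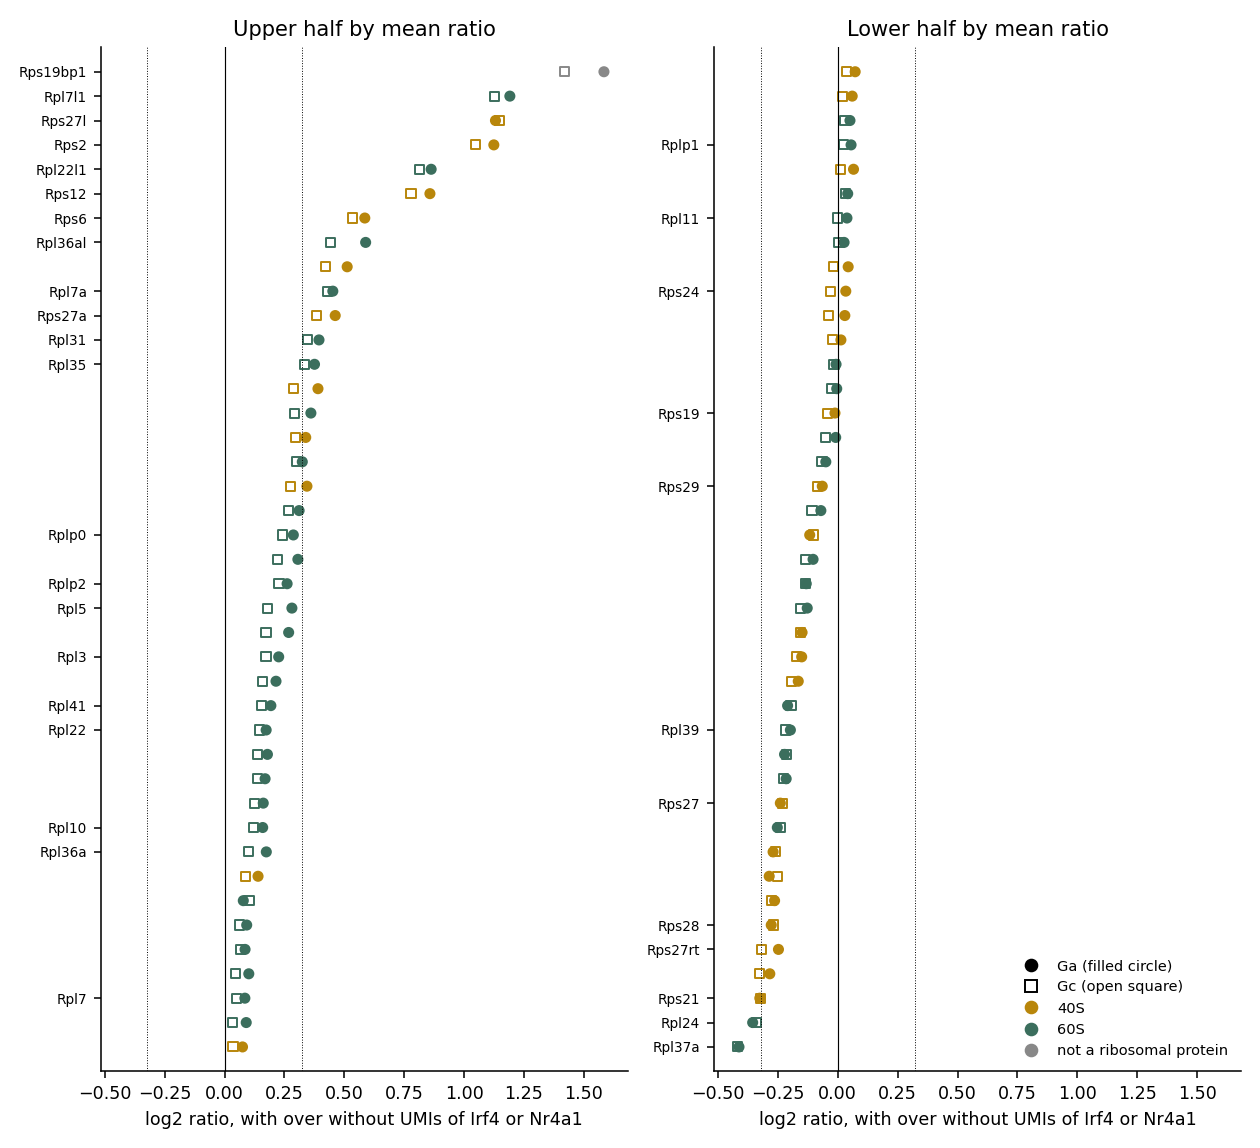
Log2 ratio of positive over negative barcodes (horizontal axis) for the 82 measured members, ordered by the mean of Ga and Gc, with the upper 41 on the left and names for the members the text describes. Filled circles are Ga and open squares Gc, colors give the subunit, and dotted lines mark 0.32 to either side of 0; most members lie between the dotted lines, and Rps19bp1, Rpl7l1, Rps27l, Rps2, Rpl22l1 and Rps12 lie farthest to the right.

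The start regions of some of these genes are shown because a C and T tract at the start is the feature ribosomal protein messages are known for. The sequences are RefSeq's of GRCm38.p6, from 50 bases before to 30 bases after the annotated start, 5' to 3', and capitals mark the longest run of C and T.

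Rps6, chr4:86857338-86857417, minus strand: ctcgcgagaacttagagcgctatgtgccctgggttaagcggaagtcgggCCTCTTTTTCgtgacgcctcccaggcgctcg

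Rpl7a, chr2:26910757-26910836, plus strand: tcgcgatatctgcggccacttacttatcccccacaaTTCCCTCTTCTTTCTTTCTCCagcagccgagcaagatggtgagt

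Rps12, chr10:23787180-23787259, minus strand: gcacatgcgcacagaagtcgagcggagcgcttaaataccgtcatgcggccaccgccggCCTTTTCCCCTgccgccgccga

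Rpl22l1, chr3:28805458-28805537, plus strand: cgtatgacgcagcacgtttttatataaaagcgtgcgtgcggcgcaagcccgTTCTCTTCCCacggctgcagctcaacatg

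Rps21, chr2:180257329-180257408, plus strand: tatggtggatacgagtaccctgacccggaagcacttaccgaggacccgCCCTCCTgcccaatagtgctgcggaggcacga

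Rpl37a, chr1:72711210-72711289, plus strand: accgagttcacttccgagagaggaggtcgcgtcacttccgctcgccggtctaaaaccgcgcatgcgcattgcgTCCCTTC

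Rpl24, chr16:55966225-55966304, plus strand: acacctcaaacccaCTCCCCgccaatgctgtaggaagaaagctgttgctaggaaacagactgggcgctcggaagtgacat

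The first 4 belong to members that run apart above and the last 3 to members that run apart below. Of the members above that had a sequence but are not shown, Rps27l had a longest run of 9 bases. Rps2, Rpl7l1, Rpl36al and Rps19bp1 had longest runs of 6, 7, 5 and 5. The sequences shown thus differ more than the whole sets do. In Rps6 the run began at the base before the annotated start, in Rps12 at base 9 and in Rpl22l1 at base 2, counted from 1 at that start. RefSeq held this region for 65 of the 85 genes. A run of at least 8 C or T bases, on the gene's own strand, was present in 35 of the 65 (53.8%), beside 30.2% of all 27025 genes of the table. A C at the annotated start followed by 4 C or T bases was present in 13 of 65 (20%) beside 2.49% of all genes. The run of at least 8 was found in 5 of the 9 members above that had a sequence and in 0 of the 3 members below. Among those below, Rps21 held 7 C or T bases around its start. The run of 7 in Rpl37a met the end of the window, so its full length is not known. That window also ends before the gene start given for Rpl37a further below. The C start followed by 4 C or T bases was present in 1 of the 9 members above and in 1 of the 3 below. Counts this small separate nothing, and the annotated starts were not measured here. The absence of a run says only that these letters are not in this window.

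Among the proteins of the small subunit Rps27l and Rps2 had the highest ratios, and Rps27l is described with the paralogs. Rps2 (ENSMUSG00000044533, chr17:24718116-24721929, GRCm38), which lines the channel where the message enters the ribosome, stood at 3019.8 CPM in positive and 1386 CPM in negative barcodes of Ga, and 2747 CPM in positive and 1329 CPM in negative barcodes of Gc. Its log2 ratio was 1.12 (1.11 to 1.14) in Ga and 1.05 (1.03 to 1.07) in Gc. Rps12 (ENSMUSG00000061983, chr10:23785183-23787275), a protein of the head of the 40S subunit, stood at 2552 CPM in positive and 1409 CPM in negative barcodes of Ga, and 2317 CPM in positive and 1351 CPM in negative barcodes of Gc. Its log2 ratio was 0.86 (0.84 to 0.88) in Ga and 0.78 (0.76 to 0.80) in Gc. Levels in positive barcodes of Ga and Gc thus exceeded those in negative barcodes of the same library by similar ratios in both libraries.

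Rps6 (ENSMUSG00000028495, chr4:86854660-86857412), the substrate of the S6 kinases downstream of mTOR, stood at 1550.04 CPM in positive and 1033 CPM in negative barcodes of Ga, and 1394 CPM in positive and 963 CPM in negative barcodes of Gc, a log2 ratio of 0.59 in Ga and 0.53 in Gc. Rps27a, which is made as a fusion with ubiquitin, stood at 3212 CPM in positive and 2332 CPM in negative barcodes of Ga, and 2915 CPM in positive and 2234 CPM in negative barcodes of Gc, with 0.46 in Ga and 0.38 in Gc on the log2 scale. Rpl7a (ENSMUSG00000062647, chr2:26910764-26913318), the 60S protein of the upper set that is no paralog, stood at 884 CPM in positive and 646 CPM in negative barcodes of Ga, and 816 CPM in positive and 606 CPM in negative barcodes of Gc, and its log2 ratio was 0.45 in Ga and 0.43 in Gc. All these genes were higher in positive barcodes of both libraries, by less than Rps2 and Rps12.

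Of 8 paralogs, genes named for a parent ribosomal protein with a suffix, 5 were measured and 4 of these ran apart above. Rps27l (ENSMUSG00000036781, chr9:66946086-66949516), a paralog of Rps27 and a known target of p53, stood at 158 CPM in positive and 72.3 CPM in negative barcodes of Ga, and 153 CPM in positive and 69.3 CPM in negative barcodes of Gc, a log2 ratio of 1.13 (1.05 to 1.21) in Ga and 1.147 (1.07 to 1.22) in Gc. Its parent Rps27 was at 3367 CPM in positive and 3975 CPM in negative barcodes of Ga, and 3085 CPM in positive and 3622 CPM in negative barcodes of Gc, a log2 ratio of -0.24 in Ga and -0.23 in Gc. Paralog and parent thus lay on opposite sides of 0 in both libraries. Rpl22l1 (ENSMUSG00000039221, chr3:28805436-28807424) is the paralog of Rpl22, a protein needed for the development of alpha-beta T cells in mice. It stood at 701 CPM in positive and 386 CPM in negative barcodes of Ga, and 664 CPM in positive and 377 CPM in negative barcodes of Gc, and its log2 ratio was 0.86 (0.82 to 0.90) in Ga and 0.82 (0.78 to 0.85) in Gc. Rpl22 was at 1284 CPM in positive and 1138 CPM in negative barcodes of Ga, and 1182 CPM in positive and 1068 CPM in negative barcodes of Gc, a log2 ratio of 0.17 in Ga and 0.15 in Gc.

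Rpl7l1, whose yeast relative Rlp7 works in ribosome assembly, stood at 104 CPM in positive and 45.7 CPM in negative barcodes of Ga, and 102 CPM in positive and 46.9 CPM in negative barcodes of Gc. Its log2 ratio was 1.19 in Ga and 1.13 in Gc, beside 0.085 in Ga and 0.051 in Gc for Rpl7. Rpl36al, a paralog of Rpl36a, stood at 759.6 CPM in positive and 505 CPM in negative barcodes of Ga, and 657 CPM in positive and 483 CPM in negative barcodes of Gc, with a log2 ratio of 0.59 in Ga and 0.44 in Gc, beside 0.17 in Ga and 0.099 in Gc for Rpl36a. In each of these 4 pairs the paralog had the higher ratio in both libraries. The fifth, Rps27rt, a retrotransposed copy of Rps27, followed its parent, with -0.25 in Ga and -0.32 in Gc. The other paralogs were hardly found. Rpl39l had 25 UMIs in all Cd3+ barcodes and Rpl3l, known from muscle, had 19, while Rpl10l, known from testis, had 0 UMIs. Their parents Rpl39, Rpl3 and Rpl10 had log2 ratios of -0.20, 0.23 and 0.16 in Ga, and of -0.22, 0.17 and 0.12 in Gc. Rps19bp1, also named Aros and known to bind Sirt1, had the highest ratio of the 82 in both libraries, 1.58 (1.44 to 1.73) in Ga and 1.42 (1.27 to 1.56) in Gc, at 59.3 CPM in positive and 19.8 CPM in negative barcodes of Ga, and 49.7 CPM in positive and 18.6 CPM in negative barcodes of Gc.

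Members that run apart below differed less. Rpl37a (ENSMUSG00000046330, chr1:72711290-72713813), a small zinc-binding protein of the 60S subunit, stood at 2272 CPM in positive and 3024 CPM in negative barcodes of Ga, and 2157 CPM in positive and 2878 CPM in negative barcodes of Gc. Its log2 ratio, -0.41 (-0.43 to -0.39) in Ga and -0.42 (-0.43 to -0.40) in Gc, was the lowest of the 82 in both. Rpl24 (ENSMUSG00000098274, chr16:55966275-55971435), which forms a bridge to the small subunit, stood at 1301 CPM in positive and 1663 CPM in negative barcodes of Ga, and 1299 CPM in positive and 1643 CPM in negative barcodes of Gc, a log2 ratio of -0.35 in Ga and -0.34 in Gc. Rps21 stood at 2727 CPM in positive and 3416 CPM in negative barcodes of Ga, and 2598 CPM in positive and 3246 CPM in negative barcodes of Gc, a log2 ratio of -0.33 in Ga and -0.32 in Gc. These values are shares of UMIs, and positive barcodes held more UMIs in all, so a lower CPM does not show fewer molecules per cell.

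Rpl5, Rpl11 and the stalk proteins, which have known partners outside the core, did not run apart. Not all of them lay close to the median. Rpl5 and Rpl11, which travel with the 5S RNA and can bind Mdm2, had log2 ratios of 0.28 in Ga and 0.18 in Gc and of 0.038 in Ga and -0.0020 in Gc. The stalk proteins, which recruit elongation factors, had 0.29 in Ga and 0.24 in Gc for Rplp0, 0.056 in Ga and 0.024 in Gc for Rplp1 and 0.26 in Ga and 0.23 in Gc for Rplp2. Rpl5 was thus higher than Rpl11, and Rplp0 and Rplp2 higher than Rplp1, in both libraries, although none of the 5 reached 0.32. Rpl11 and Rplp1 lay close to the median member, at 0.074 in Ga and 0.034 in Gc. Rplp0 lay above the upper quartile of the members, 0.286 in Ga and 0.226 in Gc. Among the 5 members with the most UMIs were Rps24, Rps27, Rps29 and Rps21, which held, with no scaling to length, 3.13%, 2.38%, 2.36% and 2.03% of the members' UMIs. Rps24 stood at 5266 CPM in positive and 5145 CPM in negative barcodes of Ga, and 4864 CPM in positive and 4965 CPM in negative barcodes of Gc, a log2 ratio of 0.034 in Ga and -0.030 in Gc. Rps29 had -0.064 in Ga and -0.085 in Gc, and Rps28 -0.28 in Ga and -0.27 in Gc.

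Barcodes were also ordered by how many UMIs of Irf4 and Nr4a1 they held after thinning to 3000 UMIs. The UMIs counted per barcode were then equal, but the classes still differed in depth before thinning, with medians of 8624, 9218, 10277 and 11200 UMIs in Ga and 8429, 9050, 10291 and 10793 in Gc for 0, 1, 2 and 3 or more such UMIs. With 0, 1, 2 and 3 or more such UMIs there were 4073, 268, 133 and 530 barcodes in Ga and 5089, 325, 143 and 532 in Gc. The total of the members was 16.5, 17.1, 17.6 and 17.1% of UMIs over these classes in Ga, and 15.8, 15.9, 16.8 and 16.5% in Gc. Rps2 stood at 1433, 2378, 3594 and 3562 CPM in Ga and at 1367, 2080, 3406 and 3492 CPM in Gc. Rps2 was higher in each class than in the one before up to 2 UMIs, and about level after that. Rps12 had the same shape, at 1409.8, 2095, 2875 and 2708 CPM in Ga and 1344, 1897, 2655 and 2677 CPM in Gc. Rps27l stood at 75.9, 148, 173 and 177 CPM in Ga and 65.5, 115, 163 and 173 CPM in Gc, and Rpl22l1 at 407, 588, 719 and 846 and 383, 573, 685 and 846 CPM. Rpl37a was lower in each class than in the one before, at 3002, 2582, 2148 and 1874 CPM in Ga and 2898, 2366, 2135 and 1746 CPM in Gc. Rpl7 barely moved, at 1529, 1544, 1569 and 1592 CPM in Ga and 1475, 1513, 1571 and 1556 CPM in Gc. The nucleolar gene Ncl, no member, stood at 358, 700.2, 1025 and 1364 CPM in Ga and 353, 608, 991 and 1364 CPM in Gc over the same classes.

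**Figure D3:**
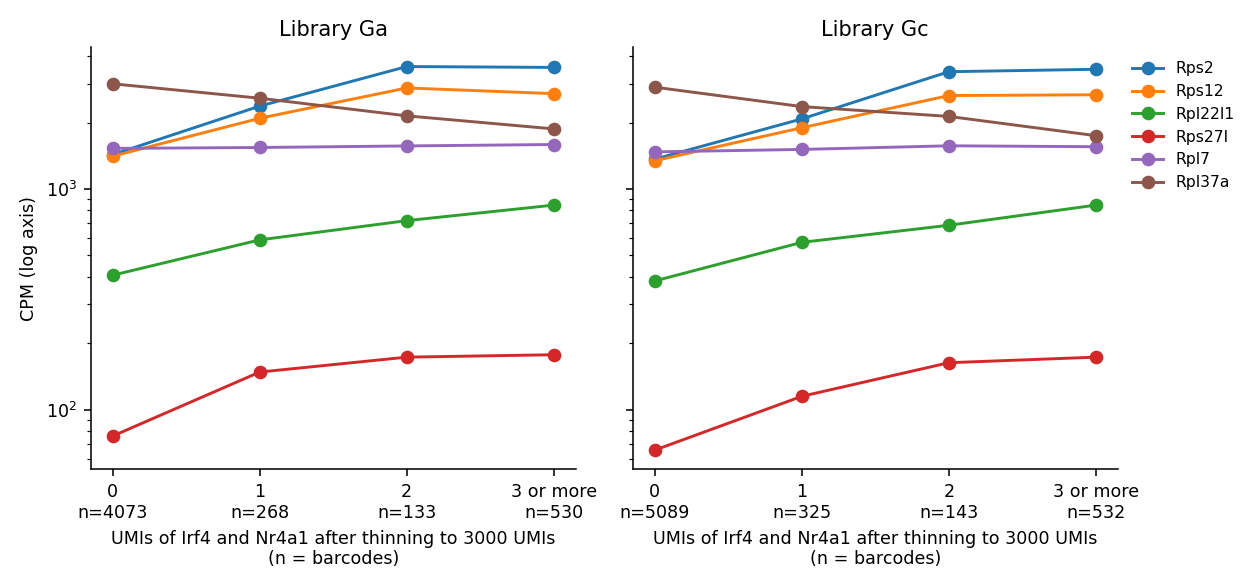
CPM (log axis) of 6 members in Cd3+ barcodes of Ga and Gc that held 0, 1, 2 or at least 3 UMIs of Irf4 and Nr4a1 after thinning to 3000 UMIs, with the number of barcodes n. Rps2, Rps12, Rpl22l1 and Rps27l climb to the right, Rpl37a declines, and Rpl7 stays nearly level.

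In Gb 6 members were higher (background 31.2%) and 54 lower (background 31.5%), in Ha 6 were higher (background 22.9%) and 1 was lower (background 18.9%), and in Hb 0 were higher (background 15.5%) and 0 lower (background 15.2%). These counts were not stable. Without barcodes of over 50000 UMIs, 1 member was higher and 6 were lower in Gb, 1 was higher and 2 were lower in Ha, and 1 was higher and 0 were lower in Hb. In barcodes thinned to 3000 UMIs and classed afterwards, positive ones numbered 26 in Gb, 29 in Ha and 13 in Hb. There, 1 member was higher and 61 were lower in Gb, and 1 was higher and 17 were lower in Ha. In Hb 0 were higher and 34 lower. Over all genes measured in the thinned barcodes the median log2 ratio was itself -0.19 in Gb, -0.12 in Ha and -0.26 in Hb. For the members it was -0.48 in Gb, -0.20 in Ha and -0.31 in Hb. The share of all genes past the limit was not counted for these settings. Rps2 had a log2 ratio of 0.71 in Gb, 0.35 in Ha and 0.057 in Hb, at 2151 CPM in positive and 1315 CPM in negative barcodes of Gb. Without barcodes of over 50000 UMIs it had -0.062 (-0.16 to 0.037) in Gb, where 2 positive barcodes were left out, 0.21 in Ha and 0.064 in Hb. The ratio of Rps2 in Gb thus changed its sign without these barcodes. Rps12 had 0.82 in Gb, 0.44 in Ha and 0.18 in Hb, and 0.17, 0.27 and 0.20 without the same barcodes. Rps27l had 1.76 in Gb, 1.19 in Ha and 0.32 in Hb, and 0.71, 0.68 and 0.36 without them. When thinned, Rps2 and Rps27l were below 0 in Gb and Rps12 in Gb and Hb, all with intervals that hold 0. Without barcodes that held 2 or more UMIs of other cells' markers, Rps2 had -0.046 and Rps27l -0.032 in Gb, and Rpl22l1 had 0.016 in Hb. Rpl22l1, higher in positive barcodes of Ga and Gc, had -0.61 in Gb, -0.12 in Ha and -0.19 in Hb, and -0.20, -0.37 and -0.18 without barcodes of over 50000 UMIs. Rpl37a had -0.45 in Gb, -0.24 in Ha and -0.055 in Hb, and -0.23, -0.23 and -0.055 without them. Its ratio was thus below 0 in these libraries with and without the deep barcodes, with an interval that holds 0 in Hb. With all barcodes, its distance from the median member was only -0.060 in Gb, -0.10 in Ha and 0.068 in Hb. All of these are nearer than 0.32, and in Hb Rpl37a lay above the median member.

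Whether the members that run apart share a technical property was looked at in depth, in other cells and in gene copies. With the barcodes of both classes matched in depth, 10 of the 11 members stayed above and 3 of the 4 below, and the 1 that did not stay above was Rpl7a. With barcodes thinned to 3000 UMIs and classed afterwards, all 11 and all 4 stayed, and 6 more members joined those below. Without barcodes that held 2 or more UMIs of B cell, myeloid, erythroid, NK or fibroblast markers, again all 11 and all 4 stayed. This setting left out 35.2% of positive and 46.4% of negative barcodes in Ga, and 38.2% and 48.6% in Gc. Myeloid markers stood at 164 CPM in positive and 35.4 CPM in negative barcodes of Ga, and erythroid markers at 43.7 and 1810.4 CPM. In barcodes with a Cd4 UMI and no Trdc UMI, 7 of the 11 and 2 of the 4 stayed. Rpl7a, Rpl36al, Rps27a and Rps21 were among those then nearer than 0.32 to the median in Ga, in Gc or in both, with log2 ratios of the same sign as before. Rps2 had 0.95 in Ga and 0.85 in Gc in these barcodes.

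Many ribosomal protein genes have near-identical copies in the mouse genome, and reads that match several places are not counted in the same way by every pipeline. GENCODE M21 transcripts that matched at least 90% of a member's coding length at 95% identity or more numbered 30 for Rpl7a, 24 for Rps2, 22 for Rps12 and 10 for Rps6. They numbered 8 for Rps27a, 2 for Rpl36al and Rpl22l1 each, 1 for Rpl7l1, and 0 for Rps27l and Rps19bp1. The 4 members below had 1 to 4. Of the 16 members with 10 or more copies, 5 ran apart above and 0 below, at a median mean log2 ratio of 0.23, beside 0.016 in the 31 members with 0 to 3 copies, of which 5 ran apart above and 3 below. Values of Rps2, Rps12, Rps6 and Rpl7a are therefore uncertain to the extent that reads were shared with copies, and the part of such reads in their ratios was not tested. None of the copies of the 15 members is among the genes of the matrices, so adding copies could not change their values. Small nucleolar RNAs, which lie in introns of some of these genes, were annotated within 29 of the 82 members, at a median mean log2 ratio of 0.055, beside 0.055 in the 53 without.

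Some near-identical copies that are counted differed between the libraries in both classes, and so did 2 of the members. Of the 81 members measured in all 5 libraries, 2 spanned 0.32 or more on the log2 scale over the libraries in negative barcodes, against a background of 10.7% of genes. Rps27rt stood at 61.0 in Ga, 105 in Gc, 54.7 in Gb, 82.5 in Ha and 80.7 in Hb in CPM of negative barcodes, and Rpl35, a protein near the exit of the peptide tunnel, at 1343 in Ga, 1033 in Gc, 1278 in Gb, 1302 in Ha and 1348 in Hb. Rps27rt was highest and Rpl35 lowest in Gc. In the positive barcodes Rps27rt stood at 51.4 in Ga, 84.0 in Gc, 40.4 in Gb, 72.3 in Ha and 77.7 in Hb CPM, highest in Gc again. Rps27rt and Rps27 have coding sequences that are 100% identical over 252 bases, and their start regions show where they part:

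Rps27, chr3:90213619-90213698, minus strand: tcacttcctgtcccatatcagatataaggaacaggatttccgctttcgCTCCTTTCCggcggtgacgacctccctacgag

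Rps27rt, chr9:114982710-114982789, minus strand: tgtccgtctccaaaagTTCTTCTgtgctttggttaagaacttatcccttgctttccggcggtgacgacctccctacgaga

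Per 100 UMIs of Rps27, Rps27rt had, in positive and negative barcodes, 1.53 and 1.53 in Ga, 2.72 and 2.89 in Gc, 1.67 and 1.44 in Gb, 2.03 and 1.97 in Ha, and 2.05 and 1.87 in Hb. The gene Gm2000, a near-identical copy of Rpl35, had 6.36 and 6.21 in Ga, 14.4 and 14.9 in Gc, 4.11 and 5.74 in Gb, 8.15 and 9.05 in Ha, and 8.62 and 8.46 in Hb per 100 UMIs of Rpl35. Gc had the most in both classes. Gm10076, a copy of Rpl41, went the other way, with 10.6 and 12.4 in Ga, 2.36 and 2.46 in Gc, 8.18 and 11.5 in Gb, 13.1 and 13.7 in Ha, and 10.1 and 10.1 in Hb per 100 UMIs of Rpl41. The copies Rpl10-ps3, Rpl9-ps6 and Rpl36a-ps1 were also highest per 100 UMIs of their members in Gc, in both classes. These 6 copies were chosen after their values were seen, and not every copy showed this pattern. BC004004, a copy of Rpl21, had 2.63 in positive and 2.16 in negative barcodes of Gc and 2.75 and 1.84 in Gb per 100 UMIs of Rpl21, and its values in negative barcodes ran from 1.84 to 2.16 over the 5 libraries. Gc stood apart in another gene of the same negative barcodes, with 3470.5 CPM of Trac, a gene of the T cell receptor alpha chain, against 6669 to 7256 CPM in the other libraries. In spite of this the log2 ratio within Gc was close to that within Ga for Rpl35, at 0.38 in Ga and 0.33 in Gc, and for Rps27rt, given above. What set Gc apart was not tested.

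**Figure D4:**
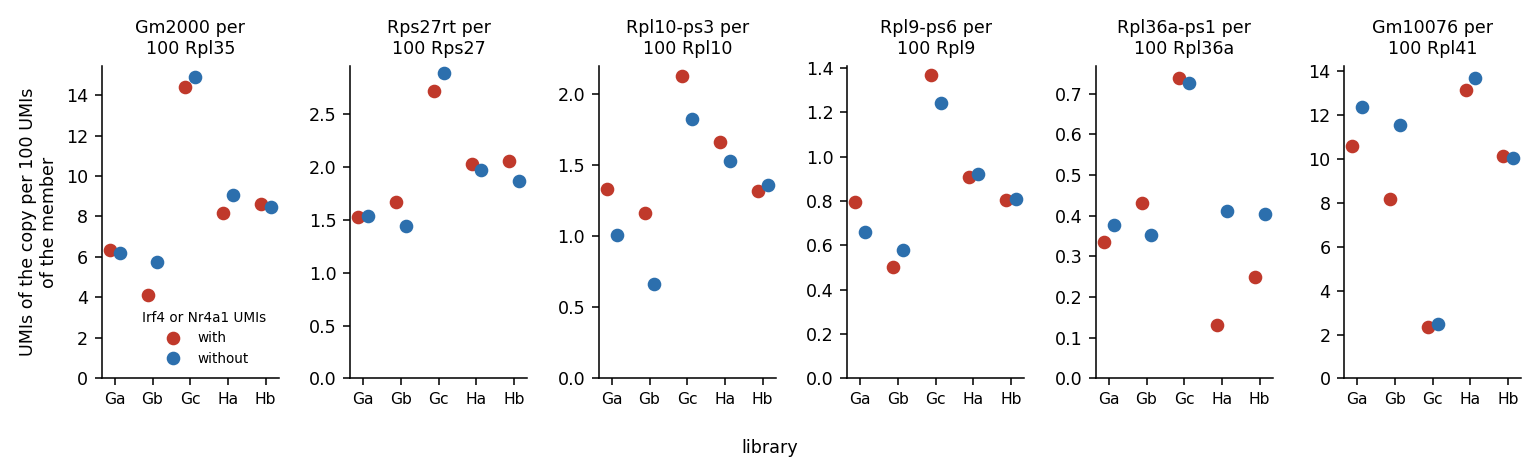
UMIs of 6 near-identical copies per 100 UMIs of the ribosomal protein gene they match (vertical axes, each with its own scale from 0) in positive (red) and negative (blue) Cd3+ barcodes of the 5 libraries. Both classes of Gc are highest for Gm2000, Rps27rt, Rpl10-ps3, Rpl9-ps6 and Rpl36a-ps1 and lowest for Gm10076.

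Genes that work with the ribosomal proteins differed more between the classes than the proteins themselves. Of 37 ribosome biogenesis genes, 36 were higher in positive barcodes of Ga and of Gc by the same limit of 0.32. The other 1, Wdr12, was lower (-0.94 in Ga and -1.02 in Gc). The background over all genes was 28.3% higher and 33.4% lower in Ga, and 29.7% higher and 30% lower in Gc. The list's median log2 ratio was 1.76 in Ga and 1.61 in Gc. Gar1, which encodes a protein of the particles that form pseudouridine in ribosomal RNA, had 2.97 in Ga and 2.79 in Gc. Rrs1, an assembly factor of the 60S subunit, had 2.63 in Ga and 2.68 in Gc, and Polr1b, a subunit of RNA polymerase I, had 1.81 in Ga and 1.71 in Gc. The member Rpl7l1, at 1.19 in Ga and 1.13 in Gc, lay between the median of these assembly factors and that of the ribosomal protein genes.

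Of the 78 mitochondrial ribosomal protein genes, 56 were higher and 1 was lower in positive barcodes of Ga, and 53 were higher and 0 lower in Gc. Their medians were 0.55 and 0.52. Of 21 other genes with TOP messages, 10 were higher and 3 lower in Ga and 9 were higher and 3 lower in Gc, with medians of 0.16 and 0.12. Like the ribosomal protein genes, and like all genes by the background given above, the TOP genes ran in both directions. Hnrnpa1 had 1.49 in Ga and 1.52 in Gc, and the nucleolar chaperone gene Npm1 had 1.14 in Ga and 1.05 in Gc. Fau, which encodes the ribosomal protein S30 and escapes the name rule, had -0.48 in Ga and -0.46 in Gc, and the elongation factor gene Eef2 had -0.35 in Ga and -0.36 in Gc. Rpsa, another 40S protein outside the name rule, had 0.35 in Ga and 0.28 in Gc.

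**Figure D5:**
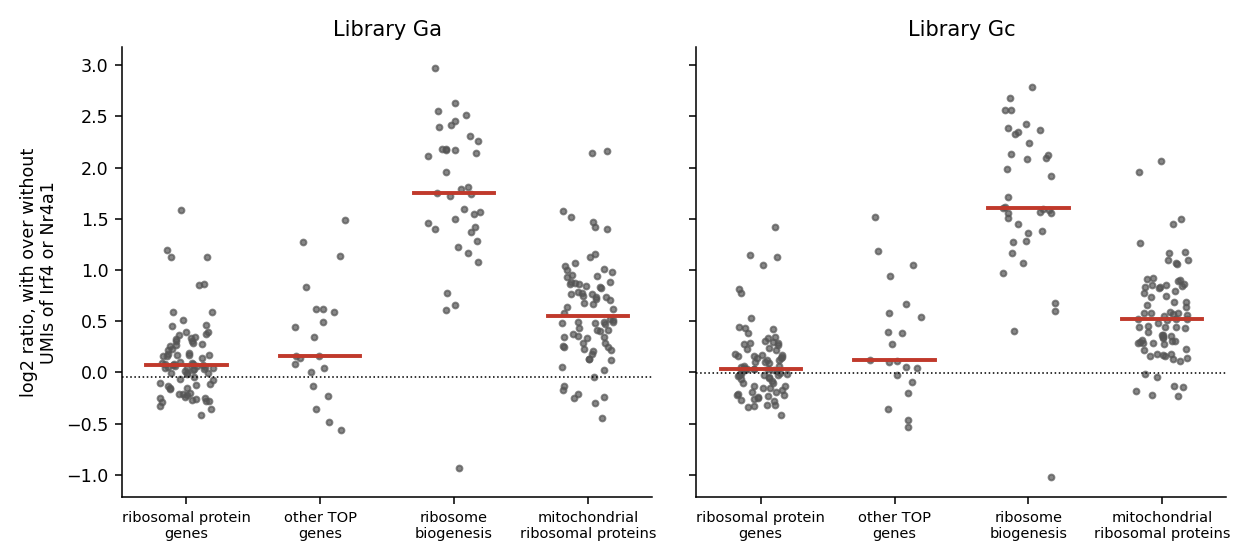
Log2 ratio of positive over negative barcodes (vertical axis) for the measured genes of 4 lists in Ga and Gc, 1 point a gene. Red lines give each list's median and the dotted line that of all measured genes; the ribosomal protein genes gather around the dotted line, and ribosome biogenesis genes lie highest but for Wdr12.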

How the data were processed

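The deposited values are counts of UMIs per gene and barcode, made by the authors with Cell Ranger 6.0.0 on mm10 per the submitters' processing notes, while the file headers name cellranger 7.1.0. Whether introns were counted, how reads with several matches were treated and whether depth was equalised between libraries is in none of the sources used here. Barcodes with at least 500 UMIs, at most 10% mitochondrial UMIs and a UMI of Cd3d, Cd3e or Cd3g were kept, and no doublet caller was run. UMIs were summed per library and class and scaled to 1000000 UMIs (CPM). Ratios carry exact binomial intervals, and shares and sums exact ones, at 95%, for counting error only. Reads of 5' ends give 1 UMI a molecule, so CPM is not scaled to length. Genes were measured in a library with at least 20 UMIs expected in positive barcodes and at least 1 UMI in each class. No p-values were computed, since each condition has 1 sample and the libraries are unassigned. Named genes were the members running apart, the 5 highest and 5 lowest ratios, the 5 widest spans, the 5 with the most UMIs, paralogs with their parents, and Rpl5, Rpl11, Rplp0, Rplp1, Rplp2 and Rps27a. Rpl31, Rpl41 and genes of the lists were named after their values were seen. Some genes that these rules select are not reported here. Members and lists were chosen with earlier results of these data known. Copies were found with blastn 2.17.0+ among GENCODE M21 transcripts. Ratios were tested on simulated data. Analyses used Python 3.11.15, numpy 2.4.6, scipy 1.17.1 and pandas 2.3.3.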

Additional observations from a re-analysis of the deposited data

Results flagged for a closer look

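Among 32 values examined for a library far from the other 4, 1 stood apart. Chance flags about 1 in 20 such groups when they are not picked by their spread. The values examined included the members with the widest spans over these same libraries, Rpl35 among them, so this rate does not apply to it. Rpl35 stood at 1033 CPM in negative barcodes of Gc, against 1278 to 1348 CPM in the other libraries. Its gap to the nearest library was 0.777 of the whole range, above the limit of 0.71 for 5 values. Gm2000, the near-identical copy of Rpl35, stood at 154 CPM in the same barcodes, against 73.3 to 118 CPM in the others. The libraries are unassigned, and what sets Gc apart was not tested.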

How the results depend on the processing

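The total of the members kept its sign in every library under every alternative, though most values moved beyond their counting interval. The log2 ratio of the total is given in the order Ga, Gc, Gb, Ha and Hb. It was 0.061, 0.024, -0.27, -0.14 and -0.11 with stricter filters on UMIs and mitochondrial share, and 0.054, 0.018, -0.26, -0.18 and -0.11 with at least 2 Cd3 UMIs. Values of 0.049, 0.0053, -0.20, -0.21 and -0.039 were found with a Cd4 and no Trdc UMI, and of 0.085, 0.043, -0.27, -0.18 and -0.089 classed by Irf4 alone. It was 0.030, 0.0036, -0.45, -0.16 and -0.22 classed by Nr4a1 alone, and 0.093, 0.053, -0.64, -0.20 and -0.15 with at least 2 UMIs of the pair against 0. Values of 0.049, 0.027, -0.21, -0.16 and -0.16 were found thinned after classing, and of 0.057, 0.047, -0.47, -0.20 and -0.30 thinned before classing. It was 0.097, 0.081, -0.31, -0.11 and -0.089 matched in depth, and 0.078, 0.035, -0.42, -0.16 and -0.16 scaled to the other UMIs. Values of 0.064, 0.048, -0.20, -0.14 and -0.13 were found as mean barcode shares, and of 0.059, 0.023, -0.38, -0.14 and -0.13 without the paralogs. It was 0.067, 0.058, -0.14, -0.18 and -0.092 without the deepest 5% of barcodes, and 0.066, 0.028, -0.38, -0.13 and -0.13 without shared barcode sequences. Values of 0.068, 0.046, -0.21, -0.17 and -0.13 were found without barcodes of over 50000 UMIs, and of 0.096, 0.090, -0.18, -0.11 and -0.18 without barcodes with 2 other-cell marker UMIs. Its span over the libraries, 0.094 in all Cd3+ barcodes, was 0.48 in positive barcodes, 0.10 in negative ones and 0.11 when scaled to the other UMIs, and ran from 0.077 to 0.094 with 1 library left out. Members higher numbered 18, 13, 6, 6 and 0 in the same order, and members lower 3, 3, 54, 1 and 0. In barcodes thinned before classing, 19, 17, 1, 1 and 0 were higher and 8, 5, 61, 17 and 34 lower. With depth matched, 19, 14, 6, 3 and 0 were higher and 1, 1, 43, 1 and 0 lower. Without barcodes of over 50000 UMIs, 18, 13, 1, 1 and 1 were higher and 2, 2, 6, 2 and 0 lower. Without barcodes with other-cell markers, 24, 20, 0, 0 and 0 were higher and 5, 3, 7, 2 and 10 lower. At a limit of 0.58, 8, 6, 6, 2 and 0 were higher and 0, 0, 15, 0 and 0 lower. At a looser limit of 0.20, 26, 22, 6, 6 and 1 were higher and 14, 14, 66, 23 and 13 lower. Shares over all genes were counted for the main setting only, so none stands beside the counts under alternatives in this paragraph. Those counts show how far the main ones move and cannot be set against other genes. With at least 100 expected UMIs 3 were higher in Gb and 3 in Ha, and with no minimum 5 were lower in Gc. Members running apart, 11 above and 4 below, were 7 and 2 with a Cd4 and no Trdc UMI, 6 and 0 at 0.58, 11 and 10 when thinned before classing, and 13 and 10 without barcodes with other-cell markers, the last chosen after seeing the data, as was the limit of 50000 UMIs. The cause was not tested. No ratio of these 15 members in Ga or Gc changed sign in 510 alternative values, of which 303 stayed within their counting interval of the main value. The 15 were picked for their distance in the same libraries, and the settings mostly reuse the same barcodes. A change of sign was therefore unlikely from the start, and its absence is no independent support. The 510 values include a setting that added counted near-identical copies. None of the 15 members has such a copy, so that setting could not test them. The values of Gb, Ha and Hb rest on 51 to 86 positive barcodes, and their depth limits what can be read from them. No paired analysis was possible because each group has 1 sample and the libraries carry no replicate number.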
